A study of Mus musculus with 12 samples.

Results

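The comparison described here is that of mouse embryonic stem (ES) cells in serum-free medium, which the labels call the 2i condition, against the same cells in medium containing fetal bovine serum (FBS), both harvested at day 3. Its members were chosen by label alone. They are the 4 arrays of day 3 among the 12 arrays of the series, 2 in serum-free medium and 2 in FBS, with 1 array from a Stella-GFP and 1 from a Dazl-GFP reporter line in each arm. The other 8 arrays are the same lines and arms at days 0 and 10. All cells were kept with leukemia inhibitory factor (LIF) on γ-irradiated mouse embryonic fibroblasts, used as feeders. The serum-free groups at days 0, 3 and 10 grew in B27N2 medium and the FBS groups at days 0, 3 and 10 in DMEM with 15% FBS. For 2i experiments the labels give PD0325901, an inhibitor of the kinase MEK, at 1 µM and Kenpaullone, an inhibitor of the kinase GSK3β, at 5 µM. They do not say whether the FBS cells of day 3 received these inhibitors, nor what the serum-free cells of day 0 had received. Each line carries a green fluorescent protein construct named after a germ cell gene (Stella is now Dppa3), each group has 1 array per line, and feeder RNA may be part of every sample. In such bulk RNA, fewer cells of a type and less RNA per cell cannot be told apart.

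As background, MEK passes growth factor signals to the kinase ERK, which drives ES cells towards differentiation, and GSK3β marks β-catenin, the effector of Wnt signals, for destruction. Blocking both kinases (2i) holds mouse ES cells in the naive state, a pluripotent state like that of the early epiblast. LIF acts through the receptor subunits Lifr and Il6st and the transcription factor Stat3. Serum carries growth factors, lipids and attachment proteins, and it induces immediate early genes, genes of the actin cytoskeleton under the serum response factor Srf, and matrix genes in fibroblasts. Cells without an outside supply of cholesterol raise their own sterol synthesis.

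Of 45018 spots per array 43379 were not controls, and 20790 genes passed the filter. On the day 3 arrays 69.5% (Stella-GFP) and 70.5% (Dazl-GFP) of spots in serum-free medium lay well above background, against 64% (Stella-GFP) and 70.2% (Dazl-GFP) in FBS. The 75th percentile of the signal was 696 and 874 intensity units in serum-free medium and 454 and 562 in FBS, so the FBS Stella-GFP array was the dimmest of the 12, and its replicate spots varied most (CV 9.7%). In all that follows a level is the log2 signal minus the array's own 75th percentile, and the Stella-GFP value stands before the Dazl-GFP value. A level compares arrays for 1 gene, not genes with each other. The arrays lay on 3 slides, and slide 2 was the only 1 to hold both arms at day 3 (serum-free Dazl-GFP and FBS Stella-GFP).

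The labelled cell type was borne out by its markers. All 9 ES cell markers were well above background on each day 3 array, and their summed linear level was 663 and 583 in serum-free medium and 554 and 649 in FBS, so the arms overlapped. The sums of markers of other cells differed between the arms at day 3. The 15 measured fibroblast markers summed to 17.3 and 11.5 in serum-free medium, against 105 and 56.2 in FBS, and all 15 were above background on each of these arrays. At day 0 the same sum was 37.7 and 31.5 in serum-free medium and 35.6 and 43.5 in FBS. The 20 macrophage markers summed to 2.39 and 3.16 in serum-free medium, with 14 and 12 above background, against 11 and 6.93 in FBS, with 16 and 18 above background. The defining markers Ptprc (CD45) and Spi1 (PU.1) were on none of the 4 arrays well above background. At day 0 the macrophage sum was 4.44 and 3.83 in serum-free medium and 3.52 and 9.84 in FBS. In FBS it was thus higher at day 0 than at day 3 in the Dazl-GFP line, and lower in the Stella-GFP line. The 12 markers of primitive endoderm, the extraembryonic layer next to the epiblast, summed to 3.29 and 6.91 in serum-free medium and 2.39 and 1.92 in FBS. At day 0 this sum was 9.33 and 13.1 in serum-free medium and 8.9 and 6.61 in FBS. The part of other cell types in the results below was not tested.

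At day 3, 1819 genes were higher and 2854 genes lower in serum-free medium than in FBS at an adjusted p under 0.05, which is 8.75% and 13.7% of the genes tested and 22.5% together. A difference of at least 2-fold was reached by 1123 of the higher and 1630 of the lower genes, and one of at least 8-fold by 26 of the higher and 94 of the lower genes. The direction was the same in both reporter lines for 4672 of the 4673 genes called and for 78.3% of all genes. Across all genes, which are not independent replicates, the differences of the lines correlated at a Pearson's r of 0.64. The median gene differed by -0.22 (log2), by -0.12 in the Stella-GFP line and by -0.26 in the Dazl-GFP line, and every list median below is to be read against that shift. Counts of list members called at day 3 are likewise to be read against the 8.75% higher and 13.7% lower of all genes. Counts of members with the same sign in both lines are to be read against 78.3%. Within slide 2, serum-free Dazl-GFP minus FBS Stella-GFP had the same sign for 4653 of the called genes (99.6%). These arrays are among the 4 that gave the calls, so that agreement was largely built in. They also differ in line, so this cannot tell arm from slide or line. With the slide as a block, 514 genes were higher and 911 lower, and 945 of the 4673 calls remained in the same direction. Leaving out 1 of the 4 day 3 arrays left 403 to 622 higher and 617 to 1013 lower genes, and a limma fit of these 4 arrays alone called none (2699 higher and 4343 lower at an unadjusted p under 0.05).

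**Figure D1:**
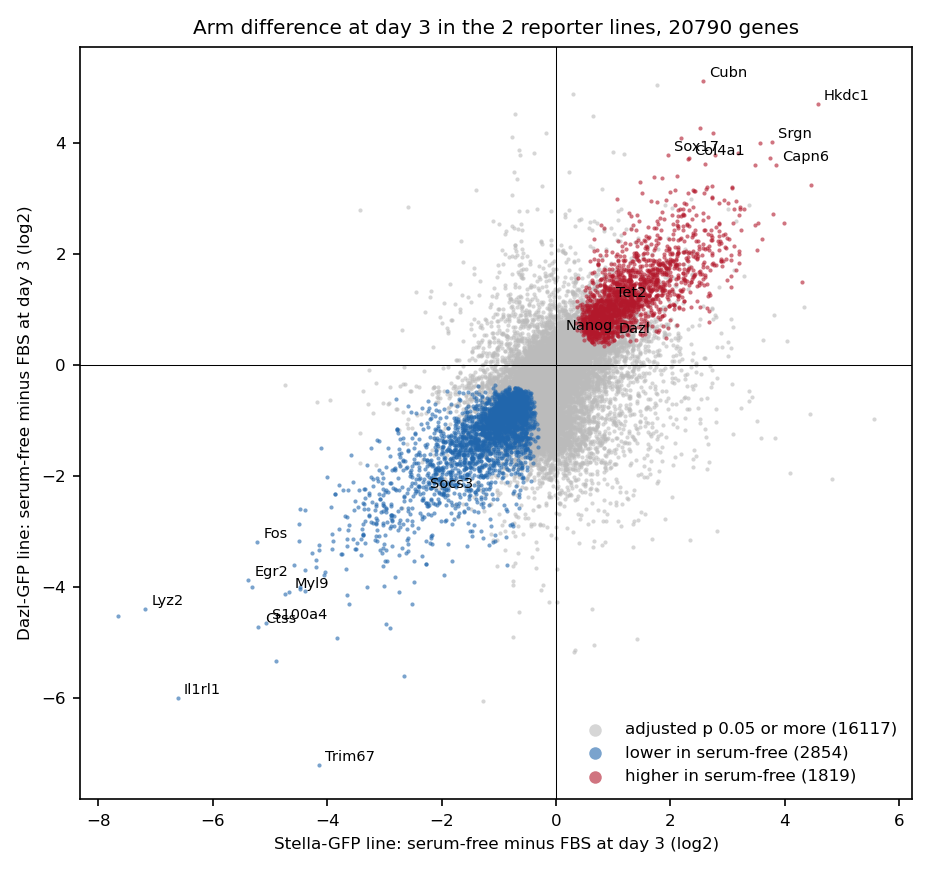
Each point is a gene. The x axis gives serum-free minus FBS at day 3 (log2) in the Stella-GFP line and the y axis the same in the Dazl-GFP line, with genes past the adjusted p of 0.05 in red (1819 higher) and blue (2854 lower). The 94 genes lower by at least 8-fold reach further from 0 than the 26 higher ones, with Il1rl1 and Lyz1 farthest out.

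Among the genes most raised in serum-free medium, Hkdc1, which encodes a hexokinase-like glucose kinase, had levels of -0.43 and 0.71 in serum-free medium against -5 and -3.99 in FBS, a difference of 4.64 ± 0.46, adjusted p = 0.00198 (n = 2 arrays per arm, as for all values below; ± is the SE of the fit). Srgn, the core protein of the proteoglycan serglycin, had 1.93 and 2.87 in serum-free medium against -1.84 and -1.15 in FBS, and Cubn, an endocytic receptor of visceral endoderm, -1.51 and 0.94 in serum-free medium against -4.08 and -4.18 in FBS. In both genes the arms did not overlap, and in Cubn the Dazl-GFP line showed the wider gap. Here and below, most genes named for passing the test on these arrays will lack overlap, so it is no separate support. The share of all genes without overlap was not counted. Capn6, a calpain-family protein, was well above background in serum-free medium only, at -2.52 and -2.11, and at least 8.96-fold higher (adjusted p = 0.00147). Such a bound sets the mean of the detected arm against the other arm's arrays, each raised to at least the lowest signal well above background on it. Spns2, a transporter that exports sphingosine-1-phosphate, was likewise detected in serum-free medium only and at least 8.17-fold higher. The bounds were 4.83-fold for Scn3a, a voltage-gated sodium channel, and 4.51-fold for the kinase gene Map3k9. Of the other genes at this end, Hs3st1, which sulfates heparan sulfate, differed by 3.05, Pam, which amidates peptide hormones, by 2.96 and Aldh1l1, an enzyme of folate metabolism, by 2.88.

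At the other end stood Il1rl1, the receptor of interleukin 33 and a gene that serum induces in fibroblasts. It had -0.2 and -1.29 in FBS and was not well above background on either serum-free array, which makes it at least 40.5-fold lower in serum-free medium (adjusted p = 0.000873). A second probe of the gene, above background on all 12 arrays, differed by -2.58. Trim67, of the TRIM family of ubiquitin ligases, had -1.09 and -1.15 in FBS and was detected on a single serum-free array, as was Vat1l (difference -4.38). Cd44, the hyaluronan receptor, had -3.25 and -3.27 in serum-free medium against 1.48 and 0.85 in FBS, with no overlap and a difference of -4.43 ± 0.39, adjusted p = 0.00158, while the dimmest of its 3 probes gave -1.07. Gpr176, an orphan receptor, was at least 7.1-fold lower. The remaining genes at this end belong to lists described below, namely the lysozymes Lyz1 and Lyz2, Ctss and C1qc (macrophages), S100a4, Thy1 and Twist2 (fibroblasts), Myl9 (contractile cells), and Egr2 and Fos (immediate early genes).

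**Figure D2:**
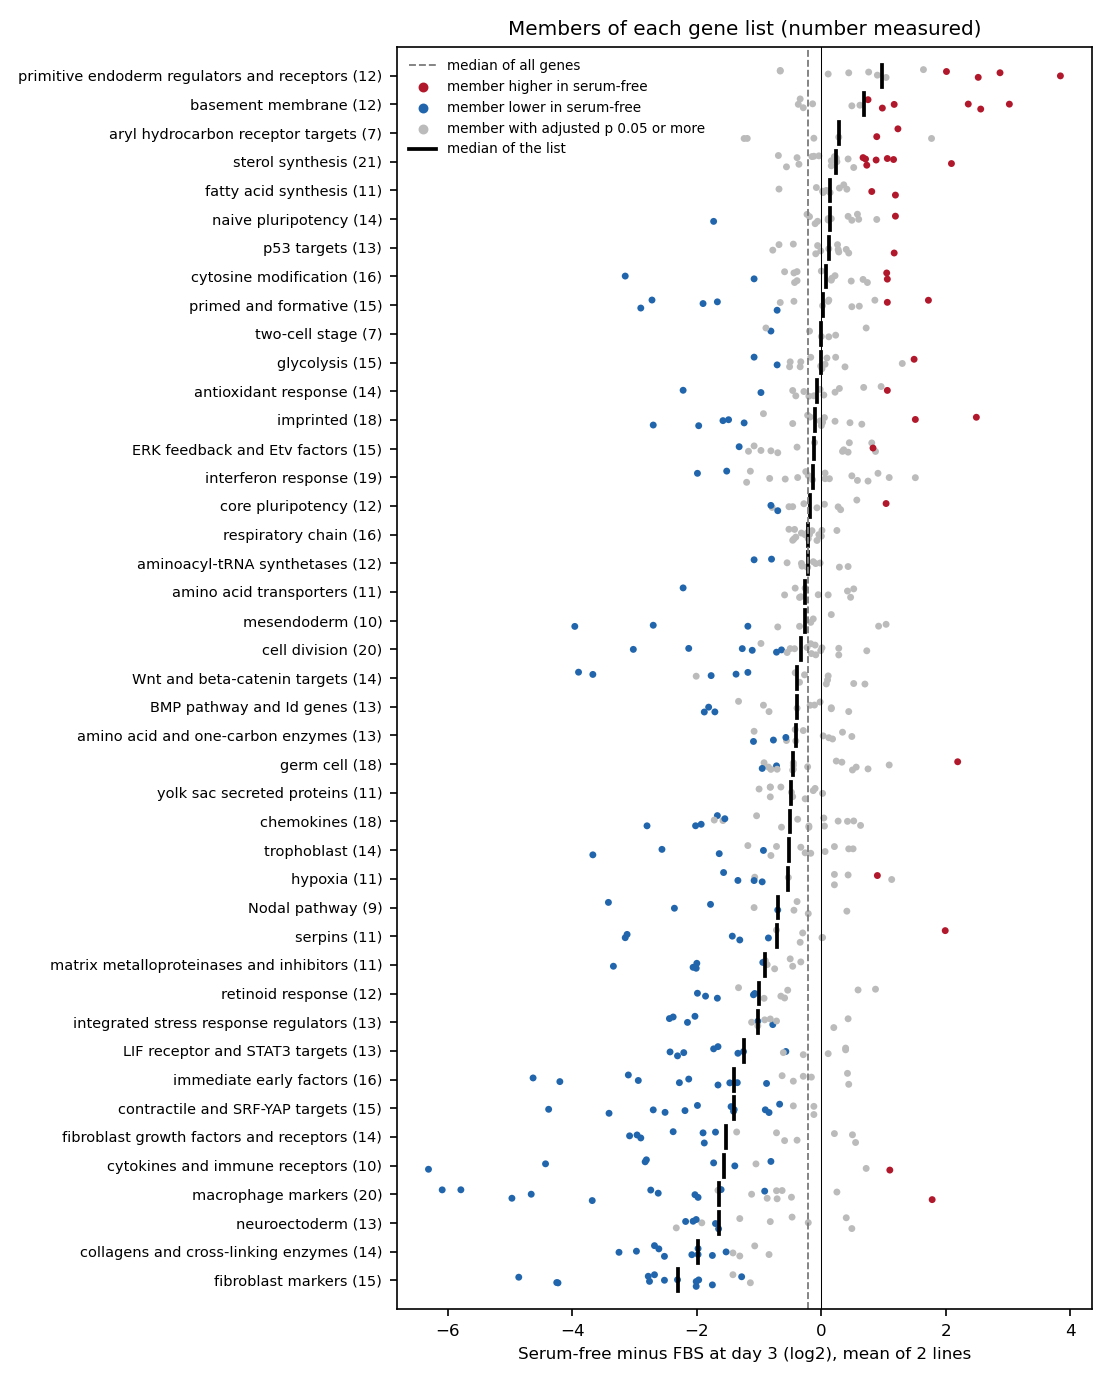
Rows are the 43 gene lists with the number of measured members, sorted by median, and each point is a member's serum-free minus FBS difference at day 3 (log2, mean of both lines). Fibroblast markers, collagens, neuroectoderm and macrophage genes lie farthest below the dashed line at the median of all genes (-0.22), and regulators of primitive endoderm and basement membrane genes lie farthest above it.

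Of 12 measured core pluripotency genes 1 was higher and 2 were lower, 8.33% and 16.7% against 8.75% and 13.7% of all genes (median -0.18, but 0.05 with the second-brightest probe of genes that have several), and of 14 naive genes 1 was higher and 1 lower, 7.14% each (median 0.14). These shares lay near or below those of all genes. Pou5f1 (Oct4) had 4.66 and 4.69 in serum-free medium against 4.21 and 5.28 in FBS and differed by -0.07 ± 0.4, adjusted p = 0.903. Nanog had 3.31 and 3.8 in serum-free medium against 3.26 and 3.25 in FBS, a difference of 0.31 ± 0.18, adjusted p = 0.248. The serum-free values of Pou5f1 lay between its FBS values, and those of Nanog lay just above, with neither gene past the test. Sall4 and Tdgf1 were lower, Sall4 with 2.51 and 2.42 in serum-free medium against 3.41 and 3.16 in FBS and a difference of -0.81, and Tdgf1, the Nodal co-receptor Cripto, with a difference of -0.7.

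Among naive genes, Nr0b1 (Dax1), a repressor in the Oct4 network, was higher at 4.45 and 4.63 in serum-free medium against 3.13 and 3.57 in FBS, a difference of 1.19 ± 0.19, adjusted p = 0.00732. Gbx2, which LIF induces, was lower at -2.96 and -2.46 in serum-free medium against -0.86 and -1.11 in FBS, a difference of -1.73 ± 0.5, adjusted p = 0.0461. Klf2, Klf4, Esrrb, Tfcp2l1, Tbx3, Zfp42, Nr5a2, Tcl1, Tdh, Klf5 and Pecam1 differed by -0.23 to 0.89 and did not pass. Dppa3 (Stella), the gene of the first reporter, had 5.33 and 4.49 in serum-free medium against 4.96 and 4.99 in FBS, with overlapping arms and a difference of -0.06 ± 0.55, adjusted p = 0.94. From day 0 to day 3 the median change of naive genes was 0.73 in serum-free medium, where 4 of 14 rose and 1 fell, and 1.18 in FBS, where 9 rose and 1 fell. Of all genes 5.89% rose and 8.06% fell in serum-free medium and 6.78% rose and 5.31% fell in FBS, and the counts of changes from day 0 below are to be read against these shares. These changes over time share the day 3 arrays with the arm difference. Tbx3, a T-box factor of the naive network, rose by 2.04 in serum-free medium and by 2.23 in FBS, and Nanog rose by 0.96 in serum-free medium and by 0.86 in FBS.

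Genes of the formative and primed states, which follow the naive state, were split. Otx2, a transcription factor of the exit from the naive state, was higher in serum-free medium with 0.77 and 0.54 in serum-free medium against -0.76 and -1.38 in FBS, a difference of 1.72 ± 0.32, adjusted p = 0.012. Fgf15, Pou3f1 (Oct6), Fgf5 and Sfrp2 were lower, and so was the N-cadherin gene Cdh2. Pou3f1 had 0.12 and -0.56 in serum-free medium against 2.4 and 2.61 in FBS and differed by -2.72 ± 0.38, adjusted p = 0.00493. For Fgf5, the classical marker of primed epiblast, the levels were -2.83 and -4.74 in serum-free medium against -1.31 and -2.46 in FBS, with the highest serum-free value below both FBS values. In all, 2 of 15 measured members were higher and 5 lower, with a median of 0.02. The other higher member was Dnmt3a, whose call rests on 1 probe, as its 2 other probes differed by 0.04 and -0.25 without passing. From day 0 none of the 15 rose in either arm, and 6 fell in serum-free medium (median -1.18) and 8 in FBS (median -1.51).

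The series title concerns Dazl and the TET enzymes. Dazl, an RNA-binding protein of germ cells, had -1.63 and 0.69 in serum-free medium against -2.61 and 0.18 in FBS. The Dazl-GFP line lay above the Stella-GFP line in both arms, by more than the arms differed, and the arm difference of 0.75 ± 0.62, adjusted p = 0.397 did not pass. A second, dimmer Dazl probe had -2.99 and -2.48 in serum-free medium against -3.99 and -3.66 in FBS, with the lines closer together than the arms, and differed by 1.1 without passing. Of the TET dioxygenases, which oxidise 5-methylcytosine, Tet1 had 0.8 and 0.4 in serum-free medium against 0.41 and 0.35 in FBS (difference 0.22 ± 0.24, adjusted p = 0.523) and Tet3 had -3.55 and -3.18 in serum-free medium against -2.72 and -4.02 in FBS (difference 0 ± 0.42, adjusted p = 0.996), with overlapping arms in both genes, and neither passed. Tet2 was higher in serum-free medium at 1.42 and 1.91 in serum-free medium against 0.47 and 0.75 in FBS, a difference of 1.05 ± 0.17, adjusted p = 0.00795. Its other probes differed by 0.59 and 2.01. Among 16 genes of cytosine modification Dnmt3a, a de novo methyltransferase, was the other higher one with 1.94 and 0.75 in serum-free medium against 0.39 and 0.19 in FBS (difference 1.06 ± 0.29, adjusted p = 0.0373). That call rests on 1 probe, as its 2 other probes differed by 0.04 and -0.25 without passing. Gadd45g and Gadd45b, stress-inducible Gadd45 proteins, were lower. Thus 2 of the 16 were higher and 2 lower, 12.5% each, near the 8.75% and 13.7% of all genes. Gadd45g had 0.71 and 0.42 in serum-free medium against 3.69 and 3.75 in FBS, a difference of -3.15 ± 0.43, adjusted p = 0.00458, and Gadd45b differed by -1.08 ± 0.31, adjusted p = 0.0455. Dnmt1, the maintenance methyltransferase, differed by -0.43 ± 0.16, adjusted p = 0.0935, its partner Uhrf1 by -0.59 ± 0.2, adjusted p = 0.0725, Dnmt3b by -0.44 and Dnmt3l by 0.74, none past the threshold. Uhrf2, Tdg, Mbd4, Smug1, Apobec1 and Gadd45a did not pass either. Dnmt3b fell from day 0 by 2.82 in serum-free medium (adjusted p = 0.00513) and by 2.97 in FBS (adjusted p = 0.00535).

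The negative feedback genes and ETS factors that ERK induces read out MEK activity. Of 15 measured genes 1 was higher and 1 lower at day 3 (median -0.11), 6.67% each, below the 8.75% and 13.7% of all genes. From day 0 the median change was -0.97 in serum-free medium, where 6 of 15 fell, and -1.21 in FBS, where 7 fell, and none rose in either arm. Dusp6, a phosphatase of ERK, had 1.77 and 1.73 in serum-free medium against 3.02 and 2.82 in FBS at day 3 and differed between arms by -1.17 ± 0.37, adjusted p = 0.0586. It fell from day 0 by 2.74 in serum-free medium and by 2.02 in FBS. Etv4, an ERK-dependent ETS factor, was lower in serum-free medium at -2.41 and -2.51 in serum-free medium against -1.54 and -0.75 in FBS, a difference of -1.32 ± 0.26, adjusted p = 0.0142, after a fall of 4.53 there and of 2.74 in FBS. Spred1, an inhibitor of Ras signalling, was the higher member, by 0.83 ± 0.19, adjusted p = 0.0237, while a weaker probe gave -0.54, and the authors' table -0.46.

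Immediate early factors are those that cells switch on first after serum or stress. Of 16 measured genes 10 were lower and none higher (median -1.41, and -1.71 and -1.42 in the lines). Egr2, a zinc finger factor, had -3.36 and -2.27 in serum-free medium against 2.02 and 1.61 in FBS, a difference of -4.63 ± 0.46, adjusted p = 0.00198. Fos had -2.43 and -0.77 in serum-free medium against 2.79 and 2.43 in FBS, and Egr1 0.89 and 2.11 in serum-free medium against 4.76 and 4.44 in FBS. Every serum-free value lay below both FBS values in these 3 genes, and the Dazl-GFP line had the higher level in serum-free medium. Junb had 3.03 and 2.96 in serum-free medium against 4.82 and 4.49 in FBS, a difference of -1.66 ± 0.19, adjusted p = 0.00281, and Ier2, Jun, Jund, Fosb, Atf3 and Fosl1 were also lower, with differences of -2.94 to -0.88. From day 0, 2 of the 16 had risen and 1 had fallen in serum-free medium (median -0.19), against 11 that had risen and 1 that had fallen in FBS (median 1.21). Egr2 changed by -0.49 in serum-free medium (adjusted p = 0.536) and rose by 3.78 in FBS (adjusted p = 0.00577). The plot of 16 genes by arm and day shows these courses.

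**Figure D3:**
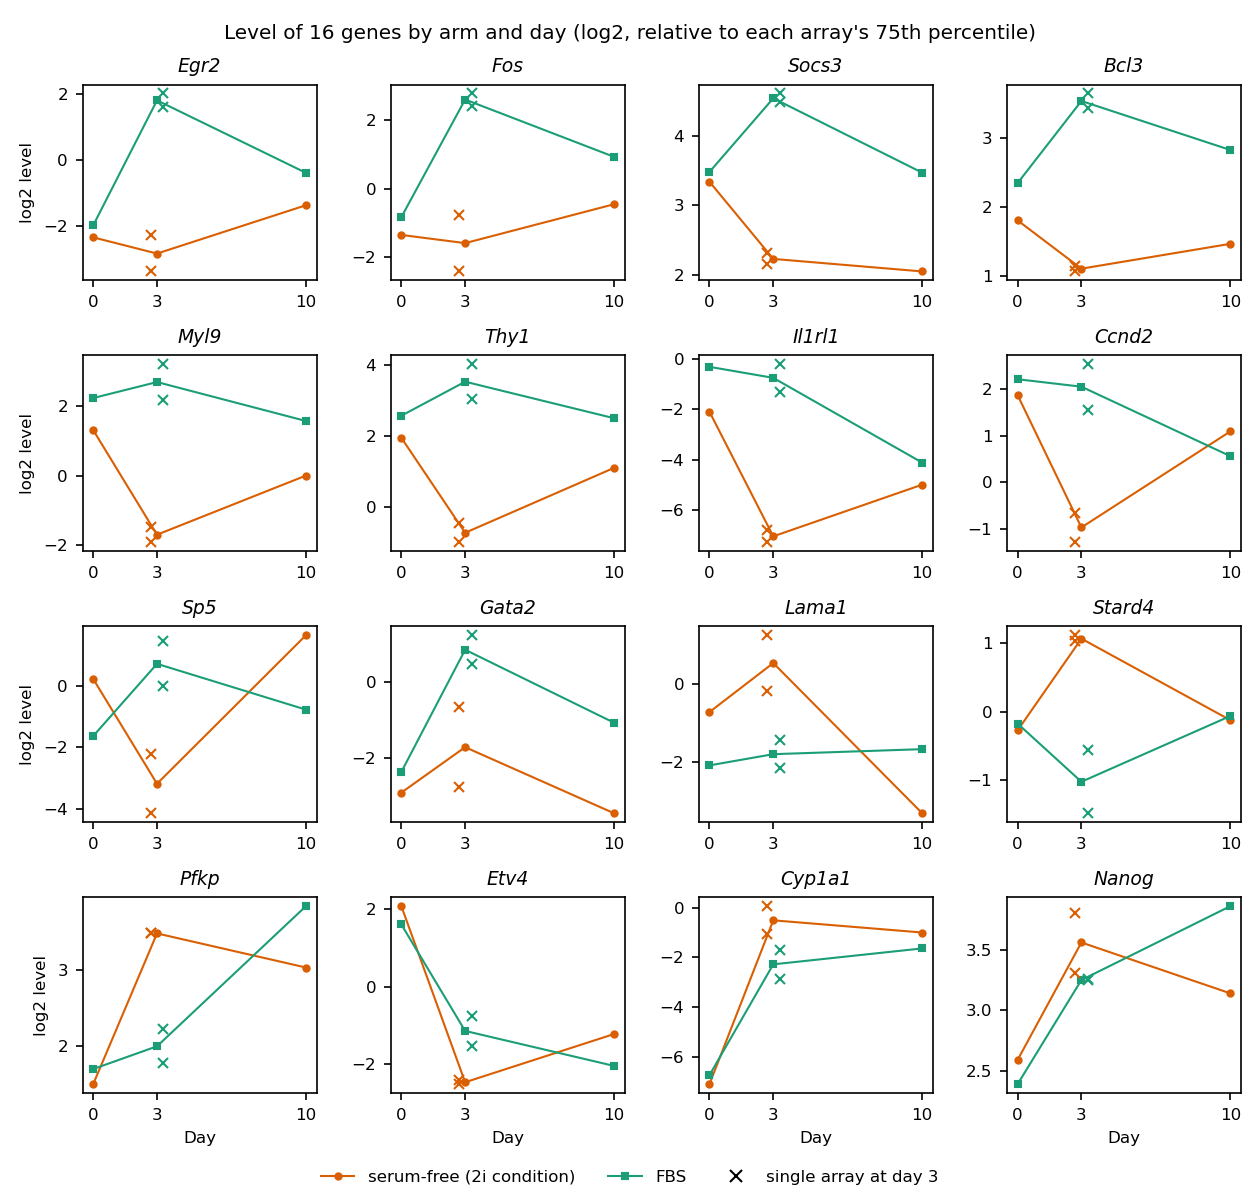
Each panel gives the log2 level of 1 gene over days 0, 3 and 10, with lines through the mean of 2 arrays per arm (serum-free in orange, FBS in green) and crosses for the single arrays of day 3, drawn beside the day. Egr2, Fos, Socs3 and Bcl3 part at day 3, Etv4 falls in both arms and Cyp1a1 rises in both, and Nanog stays close. The serum-free values of Il1rl1 at day 3 were not well above background.

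Both media held LIF. Of 13 measured genes of the LIF receptor and targets of Stat3 8 were lower in serum-free medium and none higher (median -1.25). Socs3, the feedback inhibitor of the LIF receptor, had 2.16 and 2.31 in serum-free medium against 4.48 and 4.61 in FBS, a difference of -2.31 ± 0.15, adjusted p = 0.000873, with both values of an arm close together. Bcl3, a cofactor of NF-κB, had 1.15 and 1.07 in serum-free medium against 3.65 and 3.44 in FBS, a difference of -2.43 ± 0.15, adjusted p = 0.000873. Osmr, the oncostatin M receptor, had -2.89 and -3.33 in serum-free medium against -0.36 and -1.44 in FBS and differed by -2.21 ± 0.35, adjusted p = 0.00705. Pim1, a kinase that Stat3 induces, Zfp36 and Icam1 differed by -1.25, -1.34 and -0.57, and all passed. The receptor genes Lifr and Il6st, Stat3 itself, Tfcp2l1 and Pim3 did not pass the test. Socs3 fell from day 0 by 1.11 in serum-free medium (adjusted p = 0.00582) and rose by 1.06 in FBS (adjusted p = 0.00797).

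Wnt target genes are raised when GSK3β is blocked. Of 14 measured genes 5 were lower in serum-free medium at day 3 and none higher (median -0.39). Sp5, a direct target of β-catenin in ES cells, had -2.21 and -4.14 in serum-free medium against 1.45 and 0 in FBS, with no overlap and a difference of -3.9 ± 0.48, adjusted p = 0.00356. It had changed from day 0 by -3.4 in serum-free medium (adjusted p = 0.00719) and by 2.36 in FBS (adjusted p = 0.0224). Nkd1, an inhibitor of the Wnt pathway, had -2.7 and -3.63 in serum-free medium against -1.34 and -1.45 in FBS, and the mesoderm factor T (Brachyury) -4.8 and -5.74 in serum-free medium against -3.75 and -4.42 in FBS, a difference of -1.18 ± 0.19, adjusted p = 0.00732. Cdx2, a caudal factor of trophoblast and hindgut, was at -4.56 and -4.77 in FBS, not well above background in serum-free medium, and at least 2.68-fold lower. Cdx1 was above background on 1 FBS array only. From day 0, 8 of the 14 fell in serum-free medium (median -1.69), and 4 fell and 2 rose in FBS (median -0.28).

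In the BMP pathway, which serum factors activate through Smad proteins, 3 of 13 measured genes were lower and none higher (median -0.39). Id1, an inhibitor of helix-loop-helix factors that BMP induces, had -0.55 and -0.55 in serum-free medium against 1.38 and 1.27 in FBS, a difference of -1.88 ± 0.54, adjusted p = 0.0441. Msx2, a BMP-induced homeobox gene, differed by -1.81 ± 0.29, adjusted p = 0.00733 and the inhibitory Smad6 by -1.71 ± 0.31, adjusted p = 0.0112. Id2 and Id3 pointed the same way at -1.33 and -0.93 without passing. In the Nodal pathway 4 of 9 genes were lower. The feedback inhibitors Lefty2 and Lefty1 had 2.98 and 2.02 in serum-free medium against 4.92 and 4.8 in FBS and 4.73 and 3.85 in serum-free medium against 5.97 and 6.17 in FBS. All 9 Nodal genes had the same sign in both lines (median -0.70), though Cer1 was below background on all 4 arrays. The list of fibroblast growth factors and their receptors gave 7 lower of 14 measured and none higher (median -1.53). All 7 are growth factors, and the receptor genes Fgfr1, Fgfr2, Fgfr3 and Fgfr4 did not pass. Fgf17 had -4.73 and -4.64 in serum-free medium against -1.38 and -1.82 in FBS, a difference of -3.08 ± 0.31, adjusted p = 0.00199, and Fgf8 -2.7 and -3.27 in serum-free medium against 0.33 and -0.39 in FBS, a difference of -2.96 ± 0.43, adjusted p = 0.00588. Fgf18 differed by -1.88, and Fgf7, made by fibroblasts, was below background in serum-free medium and at least 3.12-fold lower.

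Regulators of primitive endoderm and the basement membrane that it makes had the highest medians of the 43 lists. Of 12 measured regulators and receptors of primitive endoderm 4 were higher and none lower (median 0.97). At day 0, on other arrays, the list's median was 0.86, with 1 member higher, against 1.01% of all genes, and at day 10 it was -0.21. Cubn, the member with the largest difference, differed by 3.42 at day 0 and by 3.84 at day 3. Sox17 had -1.59 and -0.45 in serum-free medium against -3.54 and -4.23 in FBS, a difference of 2.87 ± 0.47, adjusted p = 0.00822, Gata6 -1.27 and -0.15 in serum-free medium against -3.49 and -2.97 in FBS and Sox7 -1.99 and -1.96 in serum-free medium against -4.53 and -3.43 in FBS. All 3 are transcription factors of this layer. Gata4, above background on 1 FBS array, and the receptor gene Pdgfra differed by 0.9 and 1.64 without passing. None of 11 measured secreted yolk sac proteins passed limma's test (median -0.48), with 1 under an unadjusted p of 0.05, and Afp was below background on all 4 arrays. Of 12 basement membrane genes 6 were higher and none lower (median 0.69). The type IV collagen Col4a1 had 1.88 and 2.8 in serum-free medium against -0.43 and -0.92 in FBS, a difference of 3.02 ± 0.5, adjusted p = 0.00847, and its other probes differed by 2.16 and 2.24. Lama1, the α chain of laminin-111, had -0.17 and 1.27 in serum-free medium against -2.18 and -1.44 in FBS (difference 2.36 ± 0.31, adjusted p = 0.00435). Its partner chains Lamb1 and Lamc1 differed by 1.17 and 0.98, Col4a2 by 2.56 and the linker Nid2 by 0.75, all past the test. These differences ran beside the summed level of primitive endoderm markers, whose part in them was not tested.

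Regulators of other lineages gave calls in the lower direction. In neuroectoderm 5 of 13 measured genes were lower and none higher (median -1.65). Tubb3, neuronal β-tubulin, had 2.33 and 1.85 in serum-free medium against 4.37 and 3.93 in FBS, a difference of -2.06 ± 0.19, adjusted p = 0.00177. The Notch target Hes5 differed by -2.18, Map2 by -2.01, Sox1 by -1.7 and Nes (nestin) by -1.65. Of 10 mesendoderm genes 3 were lower (median -0.26), namely T, the organiser factor Gsc with -2.77 and -4.27 in serum-free medium against -0.57 and -1.07 in FBS, and the ligand Wnt3 with -4.61 and -4.9 in serum-free medium against -0.99 and -0.6 in FBS, whose second probe differed by -3.22. Of 14 trophoblast genes 4 were lower (median -0.52), led by Cdx2 and by Gata2, which had -0.66 and -2.76 in serum-free medium against 1.22 and 0.46 in FBS. Of 12 retinoid response genes 5 were lower (median -1.0). The retinoid-binding protein gene Crabp1 differed by -1.67 ± 0.22, adjusted p = 0.00429 and the receptor gene Rxrg by -1.86.

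Of 18 measured germ cell genes 1 was higher and 2 were lower, 5.56% and 11.1% (median -0.45). Taf7l, a TFIID subunit of germ cells, was detected in serum-free medium only, at -3.71 and -3.89, and at least 3.32-fold higher (adjusted p = 0.00705). Ddx4 (Vasa), an RNA helicase of germ cells, was lower at 0.65 and 0.28 in serum-free medium against 1.21 and 1.16 in FBS, a difference of -0.72 ± 0.16, adjusted p = 0.0212, and Tdrd1, a tudor protein of the piRNA pathway, was lower with a difference of -0.95 ± 0.17, adjusted p = 0.011. Stra8, which retinoic acid induces at the entry into meiosis, had 0.82 and 0.32 in serum-free medium against 1.37 and 1.61 in FBS and did not pass (adjusted p = 0.235). Of 7 measured genes of the 2-cell stage embryo Eif1a was the single gene called, with a difference of -0.81, and 2 of the 7 had the same sign in both lines. Of 18 imprinted genes 2 were higher and 5 lower, 11.1% and 27.8% against 8.75% and 13.7% of all genes (median -0.10). Dlk1, a Notch-like ligand, had -4.94 and -5.2 in serum-free medium against -2.43 and -2.31 in FBS, a difference of -2.7 ± 0.3, adjusted p = 0.00278. The cyclin-dependent kinase inhibitor Cdkn1c had -1.44 and -1.97 in serum-free medium against 0.08 and 0.45 in FBS, and Mest, Phlda2 and Plagl1 differed by -1.58, -1.49 and -1.24. Sgce, a sarcoglycan, was higher at 1.71 and 2.25 in serum-free medium against 0.73 and 0.21 in FBS, a difference of 1.51 ± 0.32, adjusted p = 0.017. Peg10, a retrotransposon-derived gene beside Sgce, was detected in serum-free medium only and at least 1.41-fold higher, but differed by -0.07 after normexp correction.

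The lowest median of the 43 lists was that of fibroblast markers, with 13 of 15 measured genes lower in serum-free medium and none higher (median -2.31). S100a4, also called fibroblast-specific protein, had -0.9 and -1.48 in serum-free medium against 4.16 and 3.16 in FBS, a difference of -4.86 ± 0.31, adjusted p = 0.000873, though a dimmer probe gave -0.63 (adjusted p = 0.215). Thy1 had -0.47 and -1.01 in serum-free medium against 4.01 and 3.03 in FBS, the mesenchymal factor Twist2 -4.93 and -5.81 in serum-free medium against -0.55 and -1.73 in FBS and the collagen Col1a1 2.31 and 1.79 in serum-free medium against 4.97 and 4.17 in FBS. In each of them both serum-free values lay below both FBS values, and the FBS Stella-GFP array was the highest of the 4. Fbn1 (fibrillin), Prrx1, Snai2, Postn, Lum and Pdgfrb were lower, with differences of -2.78 to -1.97. Dcn and Col1a2 had differences of -1.14 and -1.42 and did not pass. Since day 0, 8 of 15 had fallen in serum-free medium (median -1.07) and 2 of 15 had risen in FBS (median 0.83).

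Collagens and the enzymes that cross-link them gave 10 of 14 lower and none higher (median -1.98). Col5a1 had 0.39 and -0.17 in serum-free medium against 2.68 and 1.7 in FBS, a difference of -2.08 ± 0.32, adjusted p = 0.0069, and Loxl1, a lysyl oxidase, -2.61 and -2.99 in serum-free medium against 0.74 and -0.4 in FBS. Col12a1 was below background in serum-free medium and at least 5.31-fold lower. Of 11 matrix metalloproteinases and inhibitors 5 were lower (median -0.90). Mmp14, the membrane-bound collagenase, had 1.32 and 0.37 in serum-free medium against 3.2 and 2.51 in FBS, a difference of -2.01 ± 0.17, adjusted p = 0.00147, and the inhibitors Timp3 and Timp1 differed by -2.06 ± 0.44, adjusted p = 0.0173 and -0.94 ± 0.18, adjusted p = 0.0128. Among 11 serpins, protease inhibitors, 5 were lower and 1 higher (median -0.72). Serpinf1 (PEDF) had -1.14 and -2 in serum-free medium against 1.98 and 1.18 in FBS. Serpina3n was the higher one, detected in serum-free medium only and at least 2.62-fold up. These groups ran beside the fibroblast marker sums of 17.3 and 11.5 in serum-free medium against 105 and 56.2 in FBS, and the part of the feeders was not tested.

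Of 15 contractile genes and targets of Srf and Yap 12 were lower and none higher (median -1.41). Myl9, a myosin light chain, had -1.48 and -1.92 in serum-free medium against 3.2 and 2.18 in FBS, a difference of -4.38 ± 0.29, adjusted p = 0.000873. The actin-binding proteins Tagln and Cnn1 had -0.16 and -0.58 in serum-free medium against 3.34 and 2.74 in FBS and -2.44 and -2.91 in serum-free medium against 0.22 and -0.55 in FBS. Ccn1 (Cyr61), a Yap target, had 0.83 and 1.14 in serum-free medium against 3.48 and 2.88 in FBS, a difference of -2.19 ± 0.39, adjusted p = 0.0105. Tropomyosin Tpm2 differed by -1.99 and the smooth muscle actins Actg2 and Acta2 by -0.84 and -0.67, all past the test. The probes of Acta2 disagree in size, and its second-brightest gave -1.12 and -1.62 in serum-free medium against 3.73 and 2.6 in FBS, a difference of -4.53, with -4.17 and -0.58 from 2 others, the last not past the test. The RefSeq promoter windows (GRCm38.p6, 250 bases before to 50 bases after a start listed for the gene, either strand) were searched for the CArG box, the site that Srf binds. A gene with several windows counted if any of them held the box. It was found in 3 of the 11 contractile genes with a window (27.3%), Myl9, Cnn2 and Vcl, and in 2 of the 12 immediate early genes (16.7%), Egr2 and Srf, against 1.81% of all 27025 genes with a window. Among the genes higher in serum-free medium 1.68% held it and among the lower ones 1.96%. The contractile list was drawn up to hold Srf targets, so its share is no separate support. The windows of the 2 genes lowest in their lists are shown with the match in capitals, Myl9 from chr2:156775258-156775357 (plus strand) and Egr2 from chr10:67537449-67537548 (plus strand).
Myl9: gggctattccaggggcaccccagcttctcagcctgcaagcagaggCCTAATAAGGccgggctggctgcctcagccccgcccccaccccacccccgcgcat
Egr2: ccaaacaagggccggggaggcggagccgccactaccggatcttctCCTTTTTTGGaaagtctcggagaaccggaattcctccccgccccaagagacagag
In Myl9 the match lies 161 to 152 bases before the start that its window uses, and in Egr2 72 to 63 bases before its own. Each stretch is from the first window of its gene with a match before that start. The start used need not be the gene's outer end. The Egr2 stretch lies inside the gene's bounds (chr10:67534469-67542188), and the Myl9 stretch lies before those of Myl9 (chr2:156775408-156781657). The matches describe the letters of these windows only.

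**Figure D4:**
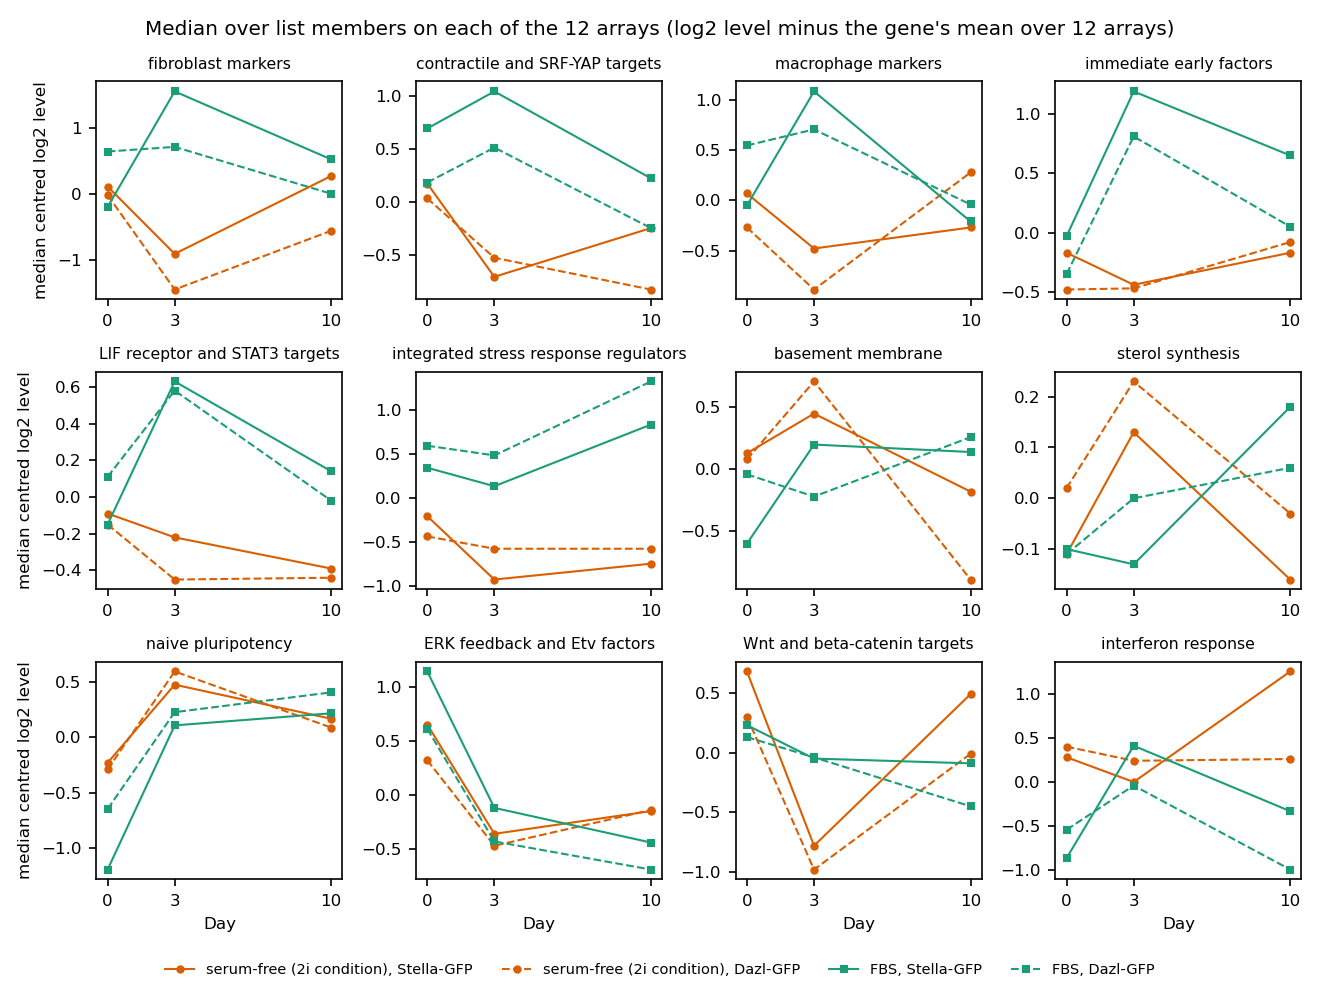
Each panel gives, for 1 list, the median over members of the log2 level minus the gene's own mean over the 12 arrays, by day, for the serum-free arm (orange) and the FBS arm (green) of the Stella-GFP (solid) and Dazl-GFP (dashed) lines. At day 3 the fibroblast medians were -0.91 and -1.45 in serum-free medium and 1.55 and 0.71 in FBS, while the medians of naive genes were higher and those of ERK feedback genes lower than at day 0 in each line and arm.

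Macrophage markers were lower for 11 of 20 measured genes and higher for 1 (median -1.64). All 20 had the same sign in both lines, against 78.3% of all genes, but not all were above background. Signal below background can share a sign too. Probes of Flna, Col3a1 and Bambi that were above background on no array each differed by -0.54 and were lower in both lines. Such a probe of Ccl25 differed by 0.27. The part of such signal in this count was not tested. Lyz2, lysozyme, had -4.58 and -2.78 in serum-free medium against 2.6 and 1.61 in FBS, a difference of -5.79 ± 0.76, adjusted p = 0.00429. Its neighbour Lyz1 is nearly identical, so signal may be shared, and was above background on 1 of 2 serum-free arrays. Ctss (cathepsin S) had -0.31 and -1.11 in FBS and was above background on 1 serum-free array, and C1qc, a complement subunit, on none, which makes it at least 15-fold lower. Tyrobp, an adaptor of myeloid receptors, was at least 9.56-fold lower, and Adgre1 (F4/80) had -4.85 and -4.83 in serum-free medium against -1.65 and -2.78 in FBS. Laptm5, a lysosomal protein of blood cells, went the other way at -0.17 and 0.61 in serum-free medium against -2.06 and -1.07 in FBS, a difference of 1.78 ± 0.29, adjusted p = 0.00822. Among 10 cytokines and immune receptors 7 were lower and 1 higher. Il6 and Ptgs2, the prostaglandin synthase, were detected in FBS only and at least 2.04-fold and 6.28-fold lower, and Csf1, the macrophage growth factor, had -2.91 and -3.19 in serum-free medium against -0.78 and -1.87 in FBS. The innate immune receptor Tlr2 was higher by 1.1 ± 0.22, adjusted p = 0.0157. Chemokines gave 5 lower of 18 (median -0.51), with Cx3cl1 at -3.58 and -3.4 in serum-free medium against -0.82 and -0.55 in FBS and Ccl2 at -0.31 and -0.66 in serum-free medium against 1.92 and 0.45 in FBS, and in both genes the serum-free values lay below both FBS values. Of 19 interferon response genes 2 were lower and none higher (median -0.14). At days 0 and 10, on other arrays, the same list had medians of 1.26, with 4 members higher, and 1.54, with 10 members higher, against 1.01% and 2.06% of all genes.

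In the integrated stress response Atf4 raises genes that answer amino acid shortage. Of its 13 measured regulators 6 were lower in serum-free medium and none higher (median -1.02), and all 13 had the same sign in both lines. Chac1, which degrades glutathione, had -0.19 and 0.14 in serum-free medium against 2 and 2.83 in FBS, a difference of -2.44 ± 0.42, adjusted p = 0.00939. Trib3, a pseudokinase that Atf4 induces, had 0.69 and 1.02 in serum-free medium against 2.66 and 3.34 in FBS, a difference of -2.15 ± 0.24, adjusted p = 0.00281. Atf4 itself differed by -0.78 ± 0.2, adjusted p = 0.0329, Cebpb by -2.03 ± 0.33, adjusted p = 0.00801 and Atf5 by -1.02 ± 0.3, adjusted p = 0.0485. Fgf21 was above background on 1 FBS array only. Of 13 enzymes of amino acid and one-carbon metabolism 3 were lower (median -0.41), Mthfd2, Shmt2 and Shmt1, with differences of -1.09 to -0.57, and of 12 aminoacyl-tRNA synthetases 2, Wars and Aars (median -0.22, but 0.02 after quantile normalization). Of 11 amino acid transporters Slc7a11 was the single gene called, and it was below background on all 4 arrays (list median -0.26, but 0.05 in the authors' table). At days 0 and 10, measured on other arrays, the stress list had medians of -0.73 and -1.78, with 1 and 9 members lower, against 0.861% and 3.72% of all genes. The letters TGATGNAA, the core of the element that Atf4 and C/EBP factors bind, were searched on both strands of the same windows. They were found in 6 of the 13 stress regulators (46.2%), including 3 of the 6 that were lower, and in 4.51% of all genes with a window. Of the 12 amino acid and one-carbon enzymes with a window 3 held them (25%), none of the 3 lower ones among them, and so did 3.19% of all lower and 2.84% of all higher genes. The stress list holds genes picked as known targets of Atf4, such as Trib3, so its share is no separate support. TGANTCA, the letters that AP-1 factors bind, was likewise searched on both strands. Among genes with a window, none of the 12 immediate early or 9 fibroblast genes held it. It was in 1 of 7 genes of the collagen list (Col6a1) and in 8.97% of all genes with a window. Shown are Chac1, the member with the lowest difference, from chr2:119351004-119351101 (plus strand), and Atf3, the Atf4-induced factor of the immediate early list (-3.26 and -2.66 in serum-free medium against 0.37 and -0.41 in FBS), from chr1:191183391-191183488 (minus strand), with the match in capitals on the reverse strand.
Chac1: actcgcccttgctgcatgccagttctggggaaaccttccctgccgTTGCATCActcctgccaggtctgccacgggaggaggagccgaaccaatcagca
Atf3: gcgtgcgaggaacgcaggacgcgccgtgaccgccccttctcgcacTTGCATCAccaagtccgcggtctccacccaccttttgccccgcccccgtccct
The match lies 193 to 186 bases before the start used for the Chac1 window and 110 to 103 bases before that used for Atf3.

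Sterol synthesis was among the few lists with members higher only. Of 21 measured genes 7 were higher and none lower (median 0.24). Stard4, a carrier of cholesterol, had 1.12 and 1.03 in serum-free medium against -1.48 and -0.56 in FBS, a difference of 2.09 ± 0.35, adjusted p = 0.00888, but its 2 other probes gave -0.70 and -0.58 without passing. Hmgcs1, the synthase before HMG-CoA reductase, had 5.65 and 5.51 in serum-free medium against 4.89 and 4.85 in FBS, a difference of 0.71 ± 0.17, adjusted p = 0.024, and its dimmer probes gave 1.39 and 0.41. Sqle, squalene epoxidase, had 3.84 and 3.94 in serum-free medium against 3.02 and 3.01 in FBS and differed by 0.88 ± 0.16, adjusted p = 0.0114. Msmo1, Nsdhl, Hsd17b7 and Fdft1 were higher by 0.67 to 1.16. The values within an arm lay closer together than the arms in each of Hmgcs1, Sqle and Msmo1. In fatty acid synthesis the desaturase Scd1 and the elongase Elovl6 were higher by 1.19 ± 0.34, adjusted p = 0.0448 and 0.81 ± 0.15, adjusted p = 0.0108, 2 of 11 measured (median 0.14). The letters TCACNCCA, from the element bound by SREBP factors, occurred in the windows of 2 of the 13 sterol genes that have one (15.4%), Hmgcs1 and Msmo1, and of 4.97% of all genes. Both are among the higher genes and are shown from chr13:119690169-119690266 (plus strand) and chr8:64733703-64733800 (minus strand), with the match in capitals.
Hmgcs1: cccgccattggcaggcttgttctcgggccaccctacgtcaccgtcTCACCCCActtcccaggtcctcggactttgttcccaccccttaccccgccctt
Msmo1: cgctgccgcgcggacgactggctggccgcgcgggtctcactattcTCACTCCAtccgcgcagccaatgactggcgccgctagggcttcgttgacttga
The match lies 137 to 130 bases before the start used for the Hmgcs1 window and 177 to 170 bases before that used for Msmo1.

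Other metabolic lists held scattered calls. The shares higher and lower were 6.67% and 13.3% in glycolysis and 7.14% and 14.3% in antioxidant genes. These lay near the 8.75% and 13.7% of all genes. Of 15 glycolysis genes Pfkp, a phosphofructokinase, was higher at 3.48 and 3.49 in serum-free medium against 2.22 and 1.77 in FBS, a difference of 1.49 ± 0.29, adjusted p = 0.0139, and the glucose carrier Slc2a1 and Pgam1 were lower, with differences of -1.08 and -0.71. Of 11 hypoxia genes 4 were lower (median -0.53), among them Vegfa at -1.37 and -1.48 in serum-free medium against -0.08 and -0.09 in FBS and Adm with a difference of -1.57, and the demethylase Kdm3a was higher by 0.9 ± 0.18, adjusted p = 0.0151. None of 16 respiratory chain genes passed (median -0.21, but 0.11 after quantile normalization), with 3 under an unadjusted p of 0.05 by limma. Of 14 antioxidant genes 1 was higher and 2 were lower, namely Gpx2 higher by 1.06 ± 0.27, adjusted p = 0.0305, Hmox1, heme oxygenase, lower with a difference of -0.97 ± 0.27, adjusted p = 0.0412, and Slc7a11 also lower but below background on all 4 arrays. Targets of the aryl hydrocarbon receptor, which many planar compounds activate, gave 2 higher of 7 (median 0.28, but -0.02 after normexp correction). With the slide as a block none was higher and 1 was lower (median 0.09). The 2 higher in the main fit were Tiparp and the receptor gene Ahr itself (0.89 ± 0.19, adjusted p = 0.0188). Tiparp had 2.53 and 2.27 in serum-free medium against 1.32 and 1.02 in FBS, a difference of 1.23 ± 0.24, adjusted p = 0.0141. Cyp1a1, the classical target, rose from day 0 by 6.59 in serum-free medium (adjusted p = 0.00373) and by 4.46 in FBS (adjusted p = 0.0114), and the arms at day 3 differed by 1.77 ± 0.71, adjusted p = 0.108. Of 13 p53 targets Trp53inp1 was the single gene called, higher by 1.17 ± 0.22, adjusted p = 0.0119.

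In the cell division list 6 of 20 genes were lower and none higher (median -0.33), with the same sign in both lines for 19. The list also holds inhibitors of division. For 1 of them, Cdkn1b, 1 probe differed by 0.28 without passing. Another, above background on all 12 arrays, was higher by 2.17 and passed. Ccnd2, a D-type cyclin, had -0.66 and -1.29 in serum-free medium against 2.53 and 1.56 in FBS, a difference of -3.02 ± 0.27, adjusted p = 0.00169, and Ccne1, the cyclin of the entry into S phase, 4.37 and 4.27 in serum-free medium against 6.51 and 6.39 in FBS, a difference of -2.13 ± 0.28, adjusted p = 0.00426. The D-type cyclins Ccnd1 and Ccnd3 differed by -1.27 and -1.11, and the mitotic genes Ccnb1 and Cdc20 by -0.72 and -0.64, all past the test, though the 2 other probes of Ccnb1 gave -0.19 and -0.46 and did not pass. From day 0, 7 members fell and 1 rose in serum-free medium (median -0.48), and in FBS none passed (median 0.04).

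Other probes were set beside the one used for each gene. Of the called genes named here 53 have another probe above background on all 12 arrays, and for 28 of them every such probe passed in the same direction. In the other 25 at least 1 such probe did not pass or had the opposite sign. Beside those described above, other probes gave -0.13 for Icam1, -0.55 for Ier2, -0.33 for Sall4, -0.49 for Sox1, 0.53 for Trp53inp1 and -0.9 for Trim67. For Pfkp 1 such probe gave 0.15 without passing and another gave 2.28 and passed. Aars had 3 such probes at -0.76 to -0.09, and Timp1 had 2 at -0.52 and -0.37. Kdm3a had 1 probe that passed (1.21) and 1 that did not (0.48). In Nsdhl probes at 1.06 and 0.98 passed and 1 at 0.75 did not. The remainder, Col5a1, Eif1a, Gadd45b, Hsd17b7, Msmo1 and Wars, kept the sign without passing.

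The slides were set against these lists. The slide 2 medians use 2 of the same 4 arrays, which differ in line as well as in arm. Within slide 2 the median was -3.14 for fibroblast markers, -1.59 for contractile genes, -1.97 for macrophage markers, -1.74 for immediate early factors, -1.25 for LIF and Stat3 targets, -0.62 for stress regulators, 1.41 for primitive endoderm regulators, 0.51 for basement membrane and 0.43 for sterol synthesis. With the slide as a block the medians were -2.74, -1.07, -2.16, -1.51, -1.36, -1.0, 1.44, 0.80 and 0.27 in the same order. The members called with that block were 8, 7, 10, 7, 5 and 1 lower in the first 6 lists and 2, 2 and 1 higher in the last 3. Myl9, Egr2, Fos and Socs3 differed by -4.02, -4.39, -4.61 and -2.33 under it, with adjusted p of 0.0243, 0.0337, 0.0245 and 0.0251. Each of the 4 day 3 arrays was also left out in turn, in the order serum-free Stella-GFP, serum-free Dazl-GFP, FBS Stella-GFP and FBS Dazl-GFP. The lower members then numbered 8, 8, 9 and 8 of 15 fibroblast markers, 6, 9, 7 and 6 of 15 contractile genes, 8, 5, 5 and 9 of 20 macrophage markers and 9, 8, 9 and 8 of 16 immediate early factors. They numbered 5, 5, 5 and 6 of 13 LIF and Stat3 targets and 1, 2, 3 and 1 of 13 stress regulators. The higher members numbered 2, 1, 3 and 1 of 12 primitive endoderm regulators, 5, 1, 4 and 1 of 12 basement membrane genes and 0, 2, 1 and 2 of 21 sterol genes. No median of these 9 lists changed sign.

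The arms were also compared at days 0 and 10, on the other arrays. Day 0 gave 390 genes (1.88% of those tested) and day 10 gave 1203 (5.79%). Of the genes called at day 3, 190 were called in the same direction at day 0 (4.07% of the day 3 genes and 48.7% of the day 0 genes) and 460 at day 10 (9.84% of the day 3 genes and 38.2% of the day 10 genes). The opposite direction was seen for 14 genes at day 0 and 62 at day 10. The arm difference itself changed from day 0 to day 3 in 342 genes (1.65% of those tested), higher at day 3 in 94 and lower in 248. Against day 10 it differed in 2019 genes (9.71%), higher at day 3 in 754 and lower in 1265. Blocking on the slide left limma with 0 genes in both (4436 and 6915 at an unadjusted p under 0.05), and without the pairing by line 26 and 3. Leaving out 1 of the 4 day 3 arrays left 0 to 10 genes against day 0 (3461 to 4092 unadjusted) and 0 or 1 against day 10 (5226 to 6511 unadjusted). Leaving out either serum-free day 0 array left 0 and 44, and dropping 1 of the other 6 arrays gave 101 to 1384 and 0 to 3107. Il1rl1 differed by -1.79 at day 0 and by -0.89 at day 10, against the bound of day 3. Myl9 differed by -0.92, -4.38 and -1.57 at days 0, 3 and 10, Egr2 by -0.35, -4.63 and -0.98, and Socs3 by -0.14, -2.31 and -1.42. For Sp5 the differences were 1.86, -3.9 and 2.42, with opposite signs at day 3 and on the other days. Taf7l differed by -0.44 at day 0 and by -1.11 at day 10, against the bound of at least 3.32-fold higher at day 3. For Lama1 the differences at days 0, 3 and 10 were 1.38, 2.36 and -1.67, with a day 3 minus day 10 change of 4.03 (adjusted p = 0.0201). Chac1 was below 0 on all days, at -2.28, -2.44 and -4.38.

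**Figure D5:**
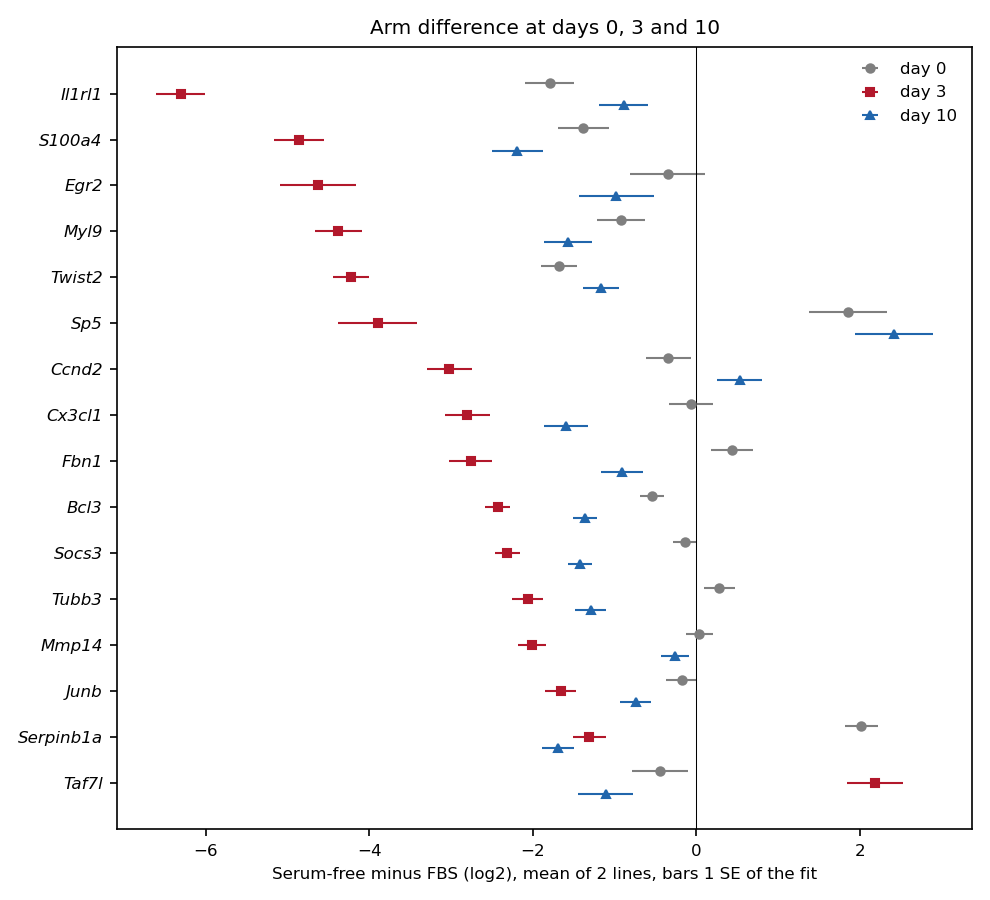
Rows are 16 genes and points the serum-free minus FBS difference (log2, mean of both lines, bars 1 SE of the fit) at day 0 (grey), day 3 (red) and day 10 (blue). Most lie farthest below 0 at day 3, Sp5 and Serpinb1a have opposite signs on different days, and Taf7l is above 0 at day 3 only. The day 3 points of Il1rl1 and Taf7l are fitted values, as 1 arm was not well above background.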

How the data were processed

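Total RNA, extracted with TRIZOL, was hybridised as Cy3-labelled samples to one-colour Agilent arrays. The authors deposited, per the file headers, the Feature Extraction intensity of each spot after local background subtraction and detrending, with marks for spots well above background. The authors' series table holds a ratio, per its values the background-subtracted signal over the array's median, floored at 0.1. It served as an alternative.

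The main values are log2 of the processed intensity, computed from the deposited files, minus each array's 75th percentile over all probes that are not controls. Spots of a probe were averaged, each gene was read from its brightest probe, and genes detected above background on 2 or more arrays entered the test (20790 of 26897 genes, 41174 probes). Gene names came from RefSeq through the probes' accessions (22944 probes), otherwise from the scanner files (10696) or the authors' table (7534). limma 3.58.1 (R 4.3.3) fitted all 12 arrays with 6 groups of arm by day and a term for the cell line, with Benjamini-Hochberg adjustment over all genes and a threshold of 0.05. Residual degrees of freedom were 5, so few arrays limit the precision. Whether replicates were separate cultures beyond the line is not given in the sources used here, so p-values measure the spread between these samples. Labels give the lines as the pairing. Over 15 pairs of groups the deviations of same-line arrays correlated at -0.0481 to 0.573, with 13 above 0.1. No column of another series was found. On data simulated for the day 3 comparison (20776 genes) the fit recovered 40% of genes changed by a log2 of 1, 62% at 2, 88% at 3 and 90% at 4, with 5 false calls. The simulation changed 200 genes and held independent normal noise and a line effect, but no slide effect. It therefore cannot give the rate of false calls that slides or single arrays cause in the real comparison.

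The members, the 43 gene lists and the rule for named genes were chosen with earlier results of these data known. The rule took the 15 highest and 15 lowest genes with the same sign in both lines, up to 5 called members per direction of each list (up to 4 by size where fewer than 2 passed), and all members of the cytosine modification, core and naive lists. Further genes were named for their known role after their values were seen, and some genes that the rule takes are not reported here. Trim71, Prdm14, Fgf4, Dusp5 and Hspg2, among list members, were not analysed here. Promoter windows came from RefSeq. Alternatives covered normalization, background correction, the filter, probes, blocks, the variance trend and each array left out.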

Additional observations from a re-analysis of the deposited data

Results flagged for a closer look

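For the genes below the serum-free minus FBS difference at day 3 differed from that on another day by a test of the change itself (limma, adjusted p under 0.05). The value in brackets is the day 3 difference minus the other day's (log2). Where 1 arm was not well above background at day 3 it is a fitted value and no bound. Against day 0, 342 genes differed. Feeder, contractile and matrix genes moved to lower values at day 3, namely Thy1 (-3.63), Twist2 (-2.55), S100a4 (-3.48), Snai2 (-2.26), Fbn1 (-3.2), Col1a1 (-3.1), Col5a1 (-3.01), Myl9 (-3.46), Tagln (-2.63), Mmp14 (-2.05) and Timp1 (-1.55). Immune and cytokine genes did likewise, with Il1rl1 (-4.52), Cd44 (-3.52), Il6 (-2.76), Ctss (-3.2), Cx3cl1 (-2.74) and Serpinb1a (-3.33). The signalling genes were Egr2 (-4.27), Fos (-3.68), Junb (-1.48), Socs3 (-2.17), Bcl3 (-1.89) and Sp5 (-5.76). Of other genes, Ccnd2 (-2.68), Tubb3 (-2.34) and Gpr176 (-3.79) were lower at day 3, and Capn6 (3.89) and Taf7l (2.63) were higher.

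Against day 10, 2019 genes differed. In primitive endoderm, basement membrane and lipid synthesis the day 3 difference was the higher one for Sox17 (3.97), Gata6 (3.39), Sox7 (1.94), Lama1 (4.03), Lamc1 (1.15), Col4a1 (3.54) and Col4a2 (3.18), and for Scd1 (2.27), Elovl6 (1.53), Stard4 (2.15), Msmo1 (1.33) and Nsdhl (1.5). It was also higher for Hkdc1 (4.81), Pfkp (2.31), Capn6 (2.66), Spns2 (2.74), Aldh1l1 (2.53), Sgce (1.94), Pecam1 (1.42), Tet2 (1.22) and Tlr2 (2.2). In the germ cell genes Taf7l (3.3) and Stra8 (4.25) it was higher, and in the stress and hypoxia genes Atf3 (1.93), Trib3 (1.52), Fgf21 (3.84) and Vegfa (2.52) it was higher, with the day 10 difference further below 0. It was lower for the feeder, contractile and matrix genes Thy1 (-2.86), Twist2 (-3.07), S100a4 (-2.66), Fbn1 (-1.86), Prrx1 (-2.19), Myl9 (-2.82), Tagln (-1.85), Cnn1 (-1.3), Tpm2 (-1.83), Actg2 (-1.11), Mmp14 (-1.76), Timp1 (-1.04) and Serpinf1 (-2.09). Immune genes with a lower value were Il1rl1 (-5.43), Lyz1 (-4.75), Lyz2 (-4.49), Ctss (-3.4), C1qc (-4.07), Ccl2 (-3.33) and Osmr (-2.19). Among immediate early genes and other signal targets these were Egr2 (-3.64), Fos (-2.82), Fosb (-2.36), Fosl1 (-1.66), Ier2 (-1.38), Jun (-1.51), Socs3 (-0.89), Bcl3 (-1.08), Gadd45g (-3.84), Dusp6 (-2.12), Etv4 (-2.14), Sp5 (-6.32) and Id3 (-2.77). Growth factor, primed and lineage genes with a lower value were Fgf5 (-3.79), Fgf7 (-1.75), Fgf8 (-2.95), Fgf15 (-3.12), Fgf17 (-2.61), Fgf18 (-1.6), Pou3f1 (-3.19), Dnmt3b (-3.13), Cdh2 (-2.33), Cdx2 (-5.16), T (-2.08), Sox1 (-2.62), Hes5 (-1.81) and Rxrg (-4.29). The others were the cell cycle and imprinted genes Ccnd1 (-1.61), Ccnd2 (-3.55), Ccne1 (-2.18), Cdc20 (-1.17), Cdkn1c (-1.45), Mest (-2.29) and Dlk1 (-1.93), and Gpr176 (-3.22), Trim67 (-3.42) and Vat1l (-2.33).

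With the slide as a block no change from day 0 or day 10 passed by limma, where 4436 and 6915 genes had an unadjusted p under 0.05. With groups of 2 arrays, single arrays were not tested as outliers.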

How the results depend on the processing

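The counts, in the order higher at day 3, lower at day 3, changed from day 0 and changed from day 10, were 1819, 2854, 342 and 2019. They were 22, 87, 0 and 0 after normexp correction (990 higher and 1544 lower, and 1781 and 1611 changed, at an unadjusted p under 0.05), and 1890, 7493, 3070 and 8601 with outlying local backgrounds replaced. The authors' table gave 1739, 1711, 325 and 1277, no filter on dim genes 1520, 2505, 99 and 495, genes above background on all 12 arrays 1753, 3039, 1055 and 3452, and all probes separately 3525, 4015, 449 and 2563. A variance trend gave 2063, 3293, 1571 and 3272. With the slide as a block they were 514, 911, 0 and 0, and the 4 day 3 arrays alone called 0 and 0. Without the replicate block, that is without pairing by cell line, they were 1347, 2177, 26 and 3. Leaving out 1 array gave 403 to 2211, 617 to 3409, 0 to 1384 and 0 to 3107. For the day 3 counts each of the 4 day 3 arrays mattered, with 409 and 766 without serum-free Stella-GFP, 403 and 654 without serum-free Dazl-GFP, 622 and 1013 without FBS Stella-GFP, and 416 and 617 without FBS Dazl-GFP. Of the calls 61.1% were lower, against 49.6% in the authors' table, 79.8% after normexp and 79.9% with backgrounds replaced, and the median of all genes was -0.22, against -0.11, -0.33 and -0.33. Quantile normalization moved that median to -0.10 and no filter to -0.34. The sign turned for the medians of aminoacyl-tRNA synthetases (0.02) and the respiratory chain (0.11) after quantile normalization, of aryl hydrocarbon receptor targets (-0.02) with both normexp settings, of amino acid transporters (0.05) in the authors' table and of core pluripotency genes (0.05) with second probes. Among called genes the sign turned for Peg10 (-0.07) with both normexp settings, Spred1 (-0.46 in the authors' table, -0.54 with its second probe) and Stard4 (-0.70 with its second probe). Slc7a11 was at 0.00 in the authors' table. The cause was not tested. Dim signal limits genes below background in 1 arm to bounds.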
